A study of Mus musculus with 9 samples.

Results

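Fibrillar collagens are the rope-forming proteins of the extracellular matrix, secreted as procollagens, trimmed at both ends outside the cell and packed side by side into banded fibrils that are then cross-linked. In bone the fibrils are made mainly of type I collagen, which osteoblasts deposit as osteoid and mineralize. Small amounts of types V and XI start the fibrils and limit their width, and type III is the fibrillar collagen of softer, vascular and reactive tissue. Bone-forming tumors are recognized by the osteoid that their cells lay down, so the genes of this family report on matrix production in an osteosarcoma (OS).

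The 10 genes described here were found in the deposited table by symbol, and all 10 were present among its 55367 genes. They are Col1a1, Col1a2, Col3a1, Col5a1, Col5a2, Col5a3, Col11a1, Col24a1 and Col27a1, which encode fibrillar chains, and Col12a1. Col12a1 encodes type XII collagen, which decorates type I fibrils and is a fibril-associated rather than a fibrillar collagen. The other fibrillar genes of the mouse, Col2a1 and Col11a2, are given among the remaining collagens. All 10 passed the filter on low counts, which left 15365 genes for testing.

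Whole-tumor RNA-Seq compared spontaneous OS from 2 genetically engineered mouse models (GEMMs). The p53-driven group (n = 4) carried Col2.3-Cre and 1 floxed Trp53 allele, written Col2.3-Cre/TrpP53fl/+ in the labels. The Myc-knockin group (n = 5) carried the same Cre and p53fl/+ background together with a Lox-Stop-Lox (LSL) c-MycT58A allele, in which the substitution T58A removes a phosphorylation site that marks MYC for degradation. The Cre is driven in both groups by a fragment of the Col1a1 promoter that is active in osteoblasts, so both models start from cells that use this promoter, and no group without the floxed Trp53 allele was sequenced. The labels give neither age nor sex, and nothing in them says that tumors were pooled.

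Total counts ranged from 2716322 to 17073285 per tumor. In 4 libraries (F187, M351, M408 and M9) between 23.2% and 81.0% of the counts lay on 12 satellite-repeat genes, against at most 0.0242% in the other 5, and M624 and M664 held 5.33 and 9.32 CPM of Rn7sk, an abundant small nuclear RNA, where the other 7 libraries held at least 8858. Every Myc-knockin library thus had high satellite counts or low Rn7sk, as did F187 alone among the p53-driven libraries. Library type and genotype therefore cannot be told apart. Myc read 144 to 1045 CPM in the Myc-knockin and 43.5 to 67.1 CPM in the p53-driven tumors. Bone identity was checked on 12 osteoblast markers, whose summed level was 4036 to 8544 CPM in the p53-driven and 361 to 5692 CPM in the Myc-knockin tumors. M624 held the lowest sum, with Runx2, the master regulator of the osteoblast lineage, at 9.18 CPM, while the remaining 4 Myc-knockin tumors held 132 to 194 CPM.

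The 10 genes lie on 7 chromosomes of mm10 and are long. Col1a1 (ENSMUSG00000001506) spans chr11:94936224-94953042 with 51 exons in its longest coding transcript, and Col1a2 (ENSMUSG00000029661) spans chr6:4504814-4541544 with 52. Col3a1 (chr1:45311538-45349706, plus strand, 51 exons) and Col5a2 (chr1:45374321-45503282, minus strand, 54 exons) are neighbours, and Col5a1 covers chr2:27886425-28039514 with 66 exons. Col11a1 (chr3:114030540-114220718, 67 exons) and Col24a1 (chr3:145292472-145552011, 60 exons) share a chromosome, as do Col5a3 (chr9:20770050-20815067, 67 exons) and Col12a1 (chr9:79598991-79718831, 66 exons). Col27a1 occupies chr4:63214004-63334991 with 61 exons. The repeated Gly-X-Y code of the triple helix left little sequence in common between the transcripts. No run of 31 bases of the longest coding transcript of Col1a1, Col1a2, Col5a2, Col11a1, Col24a1, Col27a1 or Col12a1 occurred in a transcript of another gene, and the highest share was 2.01% of such runs for Col3a1, all of it with Gm47302, a small RNA gene inside it that had 0 counts in every tumor.

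Promoter sequence from RefSeq (GRCm38.p6, the assembly of mm10) was given for 7 of the 10 genes. Within the 250 bases before the start that the RefSeq table gives, on either strand, the CCAAT box (CCAAT, a binding site of the general factor NF-Y) was found in 3 of the 7, against 33.8% of all 32851 promoters in the table, and the GC box (GGGCGG) in 5 of the 7 against 32.7%. Neither a Runx site (ACCACA, in 14.0% of all promoters) nor the canonical E-box of MYC (CACGTG, in 6.02%) was found in any of the 7. The windows given here hold the CCAAT boxes of Col1a2 and Col11a1, whose groups did not overlap, and of Col5a3, whose groups overlapped. The motif is in capitals, and ATTGG marks the box on the opposite strand.
Col1a2, chr6:4505497-4505526, plus strand: aaaagaatggaaCCAATttaagaagccccg
Col11a1, chr3:114030449-114030478, plus strand: gggaggcctgtgATTGGgtatgaccttcag
Col5a3, chr9:20815172-20815201, minus strand: gatctcagccagCCAATcagcgcgtggtgc
The box began 109, 79 and 122 bases before the RefSeq start of Col1a2, Col11a1 and Col5a3. For Col1a2 this start differs from that of GENCODE, so its window lies inside the span given for the gene. The box was thus found in Col1a2 and Col11a1, which separated the groups, and in Col5a3, which did not. Promoters of Col1a1, Col5a2 and Col12a1, which also separated them, were not given, and a link to the box was not tested.

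To ask whether the models differ in the matrix program, each gene was compared between the groups. Of the 10 genes, 9 had a negative log2 fold change (Myc-knockin minus p53-driven), against 43.8% of all genes tested, and their median was -2.07, against 0.14 for all genes. The groups did not overlap in 6 of the 10 (Col1a1, Col1a2, Col5a1, Col5a2, Col11a1 and Col12a1), all of them lower in the Myc-knockin tumors, where 7.54% of all genes tested were lower and 5.41% higher without overlap. edgeR's quasi-likelihood test called 3 of the 10 lower (Col5a1, Col11a1 and Col12a1) with a limit of 0.05 on the adjusted p and more than a 1.5-fold change, where 3.00% of all genes were called lower and 5.27% in either direction, and called none of them higher, where 2.26% were. With DESeq2 the 6 genes that did not overlap were all called, where 5.22% of all genes were called lower, and the same 6 were called with limma-voom, where 6.51% were. In a whole tumor, fewer cells that make collagen and less collagen RNA per cell cannot be told apart. Nor can genotype be told apart from the library features given above.

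**Figure D1:**
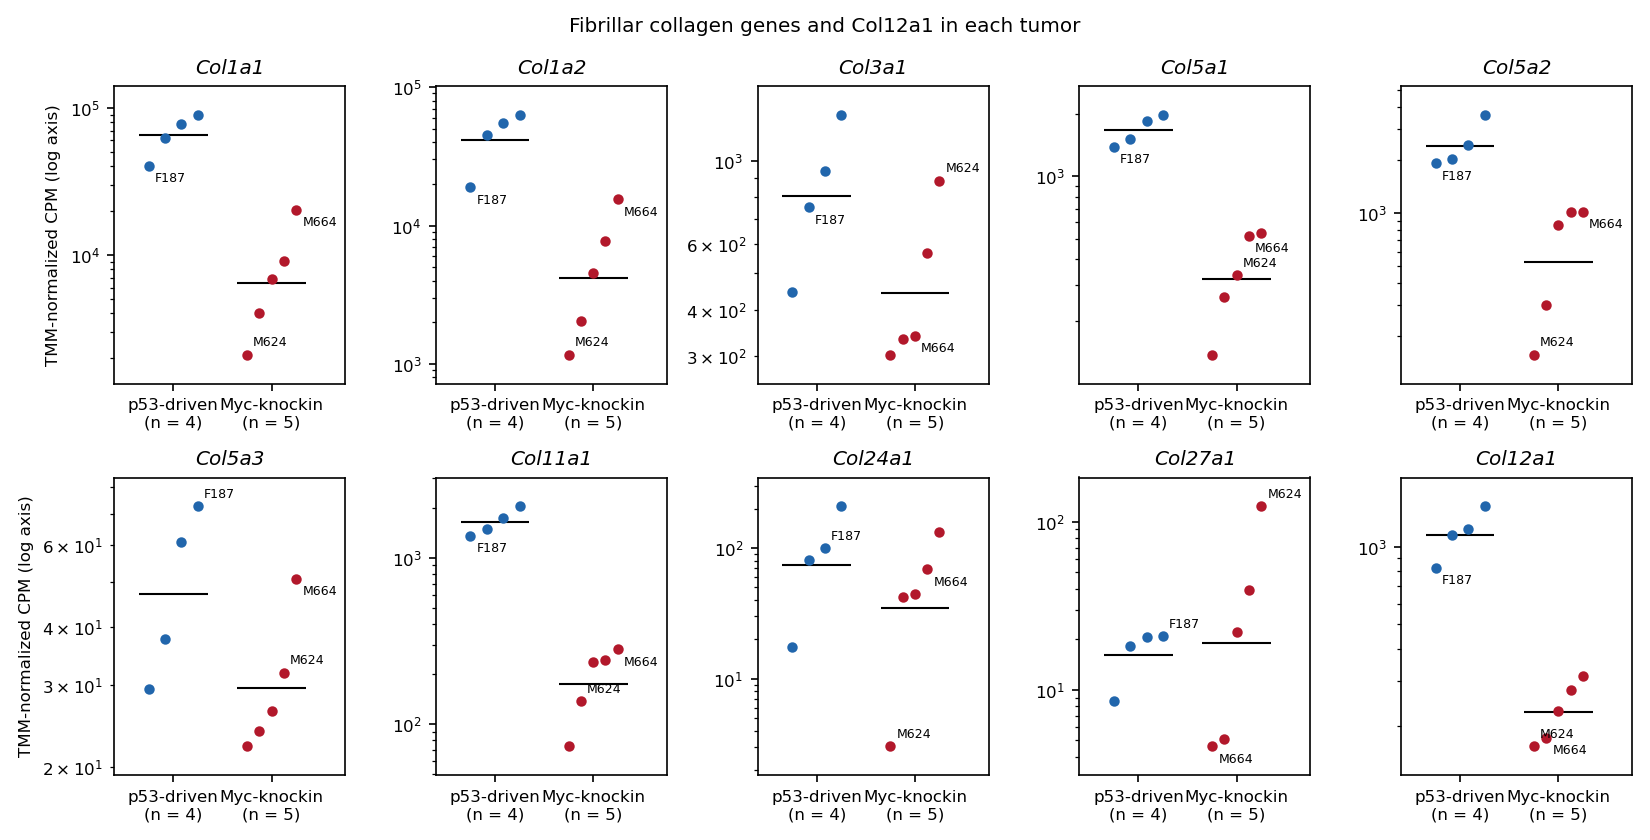
TMM-normalized CPM (log axis, a different range in each panel) of the 10 genes in each p53-driven (blue, n = 4) and Myc-knockin tumor (red, n = 5); points are ordered by value within a group and lines are geometric means. The groups separate in Col1a1, Col1a2, Col5a1, Col5a2, Col11a1 and Col12a1 and overlap in Col3a1, Col5a3, Col24a1 and Col27a1.

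The chains of type I collagen carried most of the signal. Col1a1, which encodes the major chain, read 40517, 77994, 62866 and 89709 CPM in F187, F325, F331 and F368 of the p53-driven group. It read 6852, 4028, 9116, 2098 and 20368 CPM in M351, M408, M9, M624 and M664 of the Myc-knockin group. Every Myc-knockin tumor was below every p53-driven tumor, and M664 came nearest to them. The means were 8492 ± 7158 (SD, n = 5) and 67771 ± 21234 CPM (SD, n = 4). The log2 fold change was -3.00 (SE 0.89), or 7.98-fold lower in the Myc-knockin tumors, and it missed the threshold in edgeR (adjusted p = 0.0682) while its spread within the Myc-knockin group was 9.71-fold from lowest to highest.

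Col1a2, which encodes the partner chain, showed the same arrangement. It read 18856, 55357, 63135 and 44786 CPM in F187, F325, F331 and F368, and 4556, 2043, 7789, 1164 and 15576 CPM in M351, M408, M9, M624 and M664. The groups did not overlap, and M664 came nearest to F187. The log2 fold change was -2.87 (SE 0.92, edgeR adjusted p = 0.0817). Without M624 and M664, the libraries low in Rn7sk, both type I genes passed the threshold, Col1a1 at -3.30 (edgeR adjusted p = 0.0367) and Col1a2 at -3.20 (adjusted p = 0.0459), in a fit that called 2.81% of all genes lower. DESeq2 on all 9 tumors gave adjusted p values of 1.58e-05 and 0.000528.

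Type V collagen is built into the core of type I fibrils, and 1 of its 3 chain genes was called. Col5a1, which mouse embryos need to assemble fibrils, fell in the Myc-knockin tumors. It read 1394, 1514, 1845 and 1983 CPM in F187, F325, F331 and F368, and 261, 138, 535, 334 and 519 CPM in M351, M408, M9, M624 and M664. The p53-driven tumors lay within 1.42-fold of each other and far above the Myc-knockin range. The log2 fold change was -2.24 (SE 0.45, edgeR adjusted p = 0.0265).

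Col5a2 encodes the second chain of the common type V trimer. It read 1906, 2017, 3597 and 2416 CPM in the p53-driven tumors in the same order, and 1005, 300, 854, 156 and 1013 CPM in the Myc-knockin tumors. The groups did not overlap, with a log2 fold change of -1.90 (SE 0.58) that missed the threshold in edgeR (adjusted p = 0.0725). Col5a3, a chain of restricted expression, was low throughout, at 72.7, 29.4, 61.0 and 37.7 CPM in the p53-driven and 22.2, 26.4, 23.9, 31.9 and 50.8 CPM in the Myc-knockin tumors. Its groups overlapped, with a log2 fold change of -0.67 (SE 0.35, adjusted p = 0.241). Up to 28.2% of its count in a library equalled the background expected from reads on silent receptor genes, which limits the precision of its low values.

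Col11a1 had the largest change of the 10 in the edgeR fit of all 9 tumors. Col1a1 had it with limma-voom (-3.14 against -2.97), without F331 (-3.02 against -2.97) and without M664 (-3.58 against -3.23). Col1a1 also had it without M624 and M664 (-3.30 against -3.13). Col11a1 encodes a chain of type XI collagen, which nucleates fibrils in cartilage and forms mixed trimers with type V chains in bone. It read 1360, 1740, 2039 and 1495 CPM in F187, F325, F331 and F368, and 243, 73.6, 236, 138 and 281 CPM in M351, M408, M9, M624 and M664. The lowest p53-driven tumor was thus well above the highest Myc-knockin tumor in this gene. The log2 fold change was -3.09 (SE 0.45), 8.54-fold lower in the Myc-knockin tumors, and it passed the threshold (edgeR adjusted p = 0.0160).

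Col12a1, whose product links type I fibrils to their surroundings, also fell. It read 827, 1433, 1168 and 1108 CPM in the p53-driven tumors and 313, 229, 277, 168 and 181 CPM in the Myc-knockin tumors, in the same order. Both groups were tight, with a 1.73-fold range in the p53-driven and a 1.87-fold range in the Myc-knockin tumors. Its log2 fold change was -2.28 (SE 0.35, edgeR adjusted p = 0.0175).

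The remaining genes overlapped between the groups. Col3a1, the single gene of type III collagen, read 753, 1331, 446 and 944 CPM in F187, F325, F331 and F368, and 566, 333, 303, 887 and 340 CPM in M351, M408, M9, M624 and M664. M624, which was lowest in Col1a1, was the highest Myc-knockin tumor in Col3a1, and F331 was lower than M351. Its log2 fold change was -0.84 (SE 0.45, edgeR adjusted p = 0.260).

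Col24a1 encodes type XXIV collagen, a minor fibrillar collagen of forming bone. It varied widely within each group, at 100, 17.6, 209 and 81.7 CPM in the p53-driven and 134, 42.1, 44.6, 3.05 and 69.4 CPM in the Myc-knockin tumors. F325 was lower than 4 of the 5 Myc-knockin tumors, and M624 was the lowest of all. On the log2 scale the fitted difference was -0.82 (SE 0.83, edgeR adjusted p = 0.558).

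Col27a1, the gene of type XXVII collagen of the growth plate, was the 1 member with a positive log2 fold change, 1.20 (SE 0.85, edgeR adjusted p = 0.393). It read 20.9, 8.63, 18.3 and 20.7 CPM in the p53-driven and 22.2, 5.13, 39.0, 123 and 4.62 CPM in the Myc-knockin tumors. The high value of M624 set the size of this difference, since the log2 fold change was 0.02 without that tumor. Expected background came to 40.6% of its count in the library where this share was highest.

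**Figure D2:**
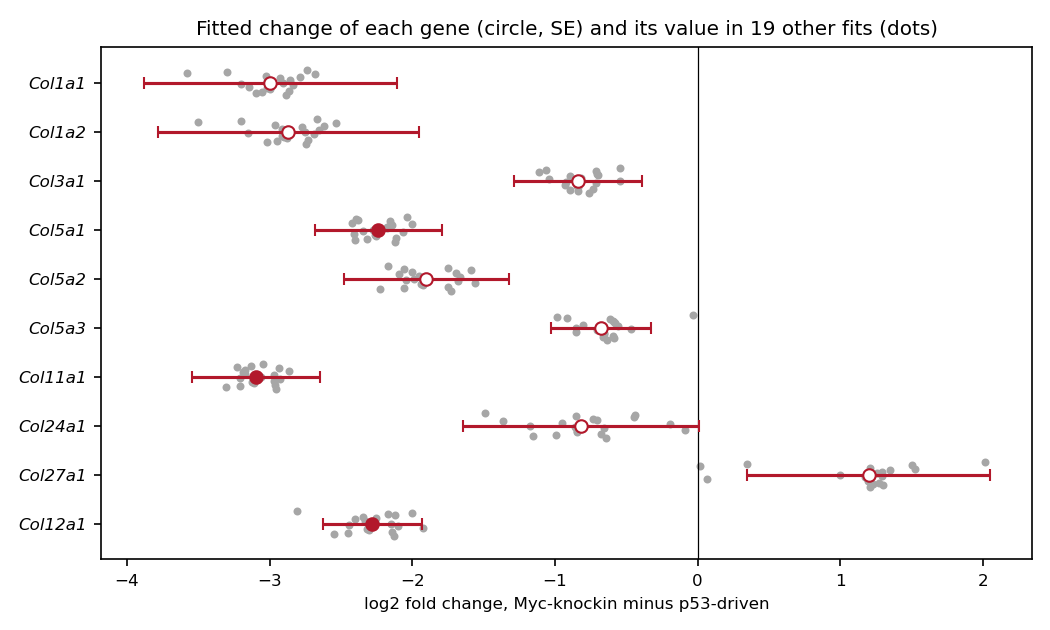
Log2 fold change of each gene (Myc-knockin minus p53-driven) in the edgeR fit of all 9 tumors (circles, filled where called; bars are SE) and in 19 alternative fits (grey dots). Col11a1, Col5a1 and Col12a1 are filled and their grey dots reach no higher than -1.92, and those of Col27a1 reach from 0.02 to 2.01.

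Each of the 10 genes kept its sign over all 20 fits made with different normalizations, filters, tools and left-out libraries, and the calls varied. Over these fits Col11a1 was called in 17, Col12a1 in 16, Col5a1 in 15, Col1a1 in 5, Col1a2 in 4 and Col5a2 in 2. Col3a1, Col5a3, Col24a1 and Col27a1 were called in 0 of the 20. With F325, F331 or F368 left out, Col11a1 (adjusted p = 0.0631, 0.0640 and 0.0619), Col12a1 (0.0647, 0.0640 and 0.0660) and Col5a1 (0.0813, 0.0931 and 0.103) all missed the threshold in edgeR, in fits where at most 0.0498% of all genes were called in either direction. Without M351, Col5a1 also missed it (adjusted p = 0.0528). Without the 4 libraries with satellite reads the 3 genes were called, where 12.1% of all genes were called lower, at log2 fold changes of -3.05, -2.81 and -2.04 for Col11a1, Col12a1 and Col5a1.

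Added together, the 10 genes made up 9.88% to 17.2% of the counts outside the satellite genes in the p53-driven tumors and 0.784% to 5.64% in the Myc-knockin tumors. The summed level was 65806, 141440, 135386 and 142581 CPM in F187, F325, F331 and F368, and 13974, 7217, 19217, 5102 and 38404 CPM in M351, M408, M9, M624 and M664. With TMM the sums did not overlap, F187 being the lowest p53-driven tumor and M664 the highest Myc-knockin tumor. The means were 121303 ± 37133 (SD, n = 4) and 16783 ± 13316 CPM (SD, n = 5). The log2 difference was -3.15, or 8.87-fold (p = 0.0159 in a two-sided exact permutation test over tumors, which cannot give a smaller value for 4 against 5 tumors). Without Col1a1, Col1a2 and Col3a1 the log2 difference was -2.27 with the same exact p of 0.0159.

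Per kilobase of transcript, which allows levels of different genes to be set side by side, type I collagen dominated in every tumor. Its chains took 92.3% to 95.6% of the summed CPM per kilobase of the 10 genes in the p53-driven tumors and 67.3% to 94.8% in the Myc-knockin tumors. In mean CPM per kilobase, Col1a1 (11429 ± 3581, SD, n = 4) and Col1a2 (8514 ± 3611) led in the p53-driven tumors, followed by Col5a2 (375 ± 117), Col11a1 (216 ± 38.9), Col5a1 (200 ± 32.8), Col3a1 (156 ± 66.5) and Col12a1 (98.5 ± 21.6). Col1a1 and Col1a2 did not differ beyond their spread, and neither did Col11a1, Col5a1 and Col3a1 among themselves. Col24a1 (14.3 ± 11.1), Col5a3 (8.20 ± 3.28) and Col27a1 (2.25 ± 0.76) were lowest.

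In the Myc-knockin tumors Col1a1 (1432 ± 1207, SD, n = 5) and Col1a2 (1164 ± 1089) again led in mean CPM per kilobase. Col5a2 (100 ± 61.6), Col3a1 (87.3 ± 44.5) and Col5a1 (42.5 ± 20.2) came next and overlapped in their spreads, and Col11a1 (25.3 ± 11.2) stood below Col3a1. Col12a1 followed at 20.3 ± 5.39, Col24a1 at 8.20 ± 6.75, Col27a1 at 5.10 ± 6.48 and Col5a3 at 5.07 ± 1.90. Col3a1 took 0.339% to 1.21% of the per-kilobase sum in the p53-driven tumors and 0.914% to 18.8% in the Myc-knockin tumors, the highest share being that of M624.

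A ratio of 2 genes within a tumor does not depend on how libraries are scaled to each other. Of 10 ratios compared by two-sided exact permutation tests, 3 had an unadjusted p under 0.05. None passed after Benjamini-Hochberg adjustment, the smallest adjusted p being 0.159, and the groups overlapped in all 10. The exact p cannot fall below 0.0159 here, so a ratio could pass only if several ratios had low exact p values together. A ratio that did not pass is therefore not shown to be unchanged. The chains of type I collagen kept a similar proportion: Col1a2 to Col1a1 per kilobase was 0.516 to 1.11 in the p53-driven and 0.562 to 0.947 in the Myc-knockin tumors (log2 difference 0.04, exact p = 0.873, adjusted p = 0.873).

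The widest log2 differences were in ratios to Col1a1, and none of them passed. Col27a1 to Col1a1 differed by 3.59 (exact p = 0.0635, adjusted p = 0.159), or by 2.52 without M624, and Col24a1 to Col1a1 by 2.27 (exact p = 0.0794, adjusted p = 0.159). All were higher in the Myc-knockin tumors. Col3a1 to Col1a1 per kilobase was 0.0198, 0.0182, 0.00757 and 0.0112 in F187, F325, F331 and F368, and 0.0881, 0.0881, 0.0354, 0.451 and 0.0178 in M351, M408, M9, M624 and M664. Of the 5 Myc-knockin tumors, 4 were above every p53-driven tumor and M664 was among them (log2 difference 2.48, exact p = 0.0476, adjusted p = 0.159), and the difference was 1.83 without M624. Col5a3 to Col5a1 was 0.0261 to 0.0718 in the p53-driven and 0.0624 to 0.263 in the Myc-knockin tumors (log2 difference 1.72, exact p = 0.0317, adjusted p = 0.159).

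Col11a1 to Col5a1, the balance of the chains that share mixed trimers, went the other way. It was 1.07, 1.26, 1.21 and 0.827 in F187, F325, F331 and F368, and 1.02, 0.585, 0.484, 0.452 and 0.595 in M351, M408, M9, M624 and M664. M351 overlapped the p53-driven tumors and the other 4 Myc-knockin tumors lay below them (log2 difference -0.85, exact p = 0.0317, adjusted p = 0.159). Col5a2 to Col5a1 (log2 difference 0.19, exact p = 0.714) and Col5a2 to its neighbour Col3a1 (log2 difference -1.33, exact p = 0.254) did not pass at either level, and 8 of the 10 ratios were higher in the Myc-knockin tumors.

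**Figure D3:**
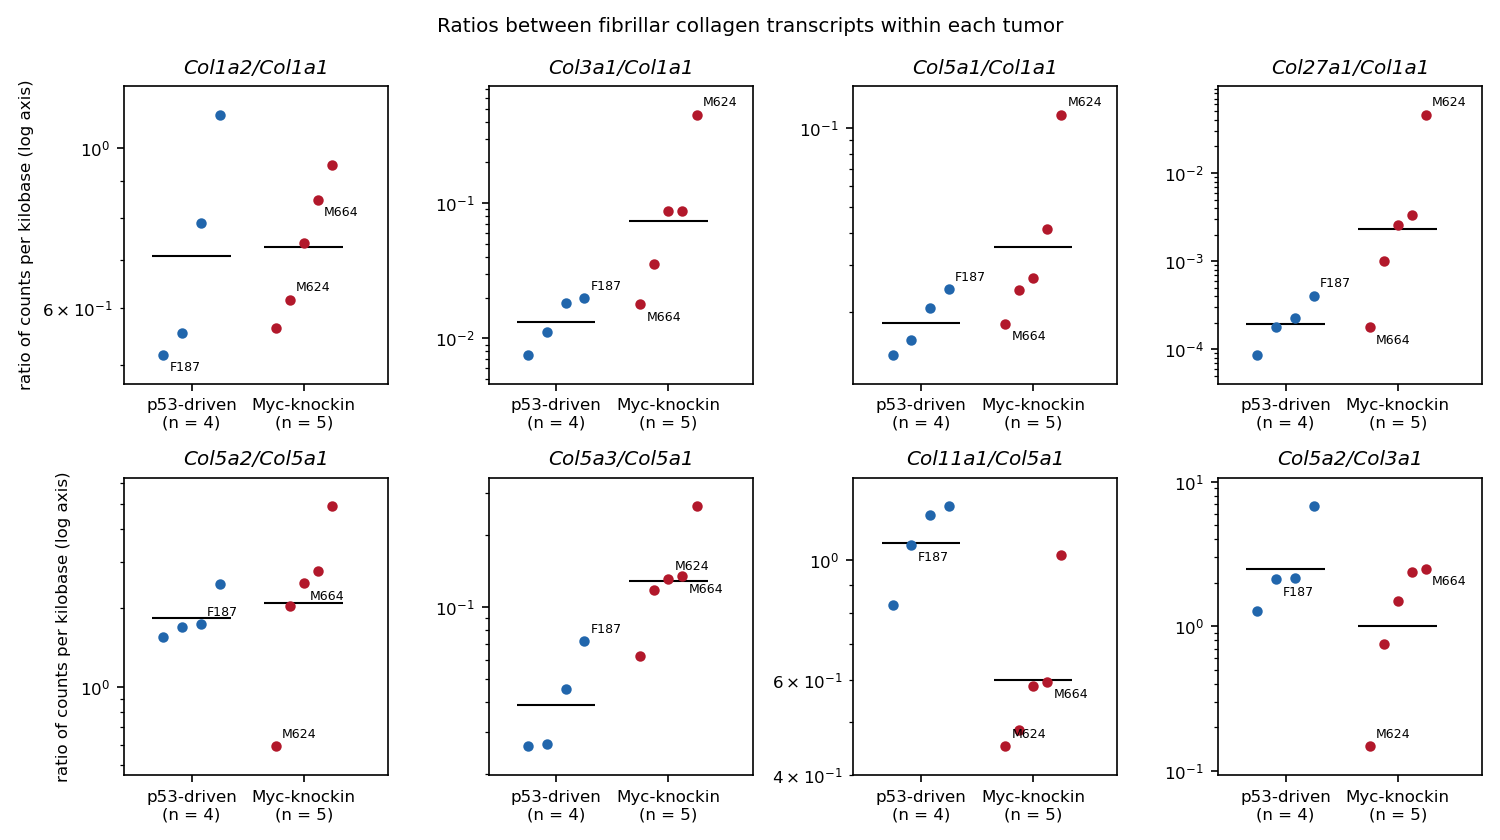
Ratios of counts per kilobase (log axis, a different range in each panel) for 8 of the 10 pairs compared, in each p53-driven (blue, n = 4) and Myc-knockin tumor (red, n = 5); lines are geometric means. All 8 overlap between the groups, M624 has the highest Col3a1/Col1a1 at 0.451 and Col27a1/Col1a1 at 0.0458, and M664 falls among the p53-driven tumors in both.

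The rest of the collagen family was read from lists arranged by the structures that the proteins build. Of 34 listed collagens outside the 10 genes, 29 were tested and 5 were called, against 5.27% of all genes. Of these 4 fell, where 3.00% of all genes did, and 1 rose, where 2.26% did, and the calls depended on the fit. The other fibrillar genes were not called. Col11a2, the partner of Col11a1, read 573 to 1530 CPM in the p53-driven and 14.5 to 400 CPM in the Myc-knockin tumors without overlap (log2 fold change -2.67, SE 0.80, edgeR adjusted p = 0.0707). Col2a1, the fibrillar collagen of cartilage, read 2566 CPM in F331 and 0.778 to 7.90 CPM in the other 3 p53-driven tumors, against 11.4 to 40.5 CPM in the Myc-knockin tumors. F331 alone set its log2 fold change of -4.31 (adjusted p = 0.146), which was 2.90 without that tumor.

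Among network and filament collagens, Col15a1 of vascular basement membranes fell (log2 fold change -2.02, SE 0.39, edgeR adjusted p = 0.0252), the only 1 called of 7 tested basement membrane and anchoring collagens, whose median was 0.88. Col6a1, a chain of the beaded filaments around cells (-1.88, SE 0.46, adjusted p = 0.0422), and Col8a1, a short-chain collagen of vessel walls (-3.31, SE 0.48, adjusted p = 0.0160), fell among 9 tested of their class. Of the fibril-associated collagens other than Col12a1, 6 were tested and 0 called, 3 with positive and 3 with negative values. The most abundant of these were Col22a1 (log2 fold change -1.01, adjusted p = 0.434), Col16a1 (-1.49, adjusted p = 0.167), Col14a1 (-1.48, adjusted p = 0.165) and Col9a3 (5.59, adjusted p = 0.0815). Without M624 Col16a1 passed the threshold (-2.37, edgeR adjusted p = 0.0331), and without F325 the log2 fold change of Col14a1 was -0.46. Col13a1, a transmembrane collagen of cell junctions with matrix, fell (-2.32, SE 0.55, adjusted p = 0.0398), and Col26a1 rose from 0.486 to 3.16 CPM in the p53-driven tumors to 6.04 to 17.7 CPM in the Myc-knockin tumors (2.93, SE 0.66, adjusted p = 0.0345). Each of these 5 calls was lost in some alternative fits, in 12 for Col6a1, 8 for Col13a1, 6 for Col26a1, 4 for Col15a1 and 3 for Col8a1. Of the fits with 1 tumor left out, Col6a1 kept its call without M9 alone (adjusted p = 0.0380), and without each of the others its adjusted p was 0.0513 to 0.155.

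**Figure D4:**
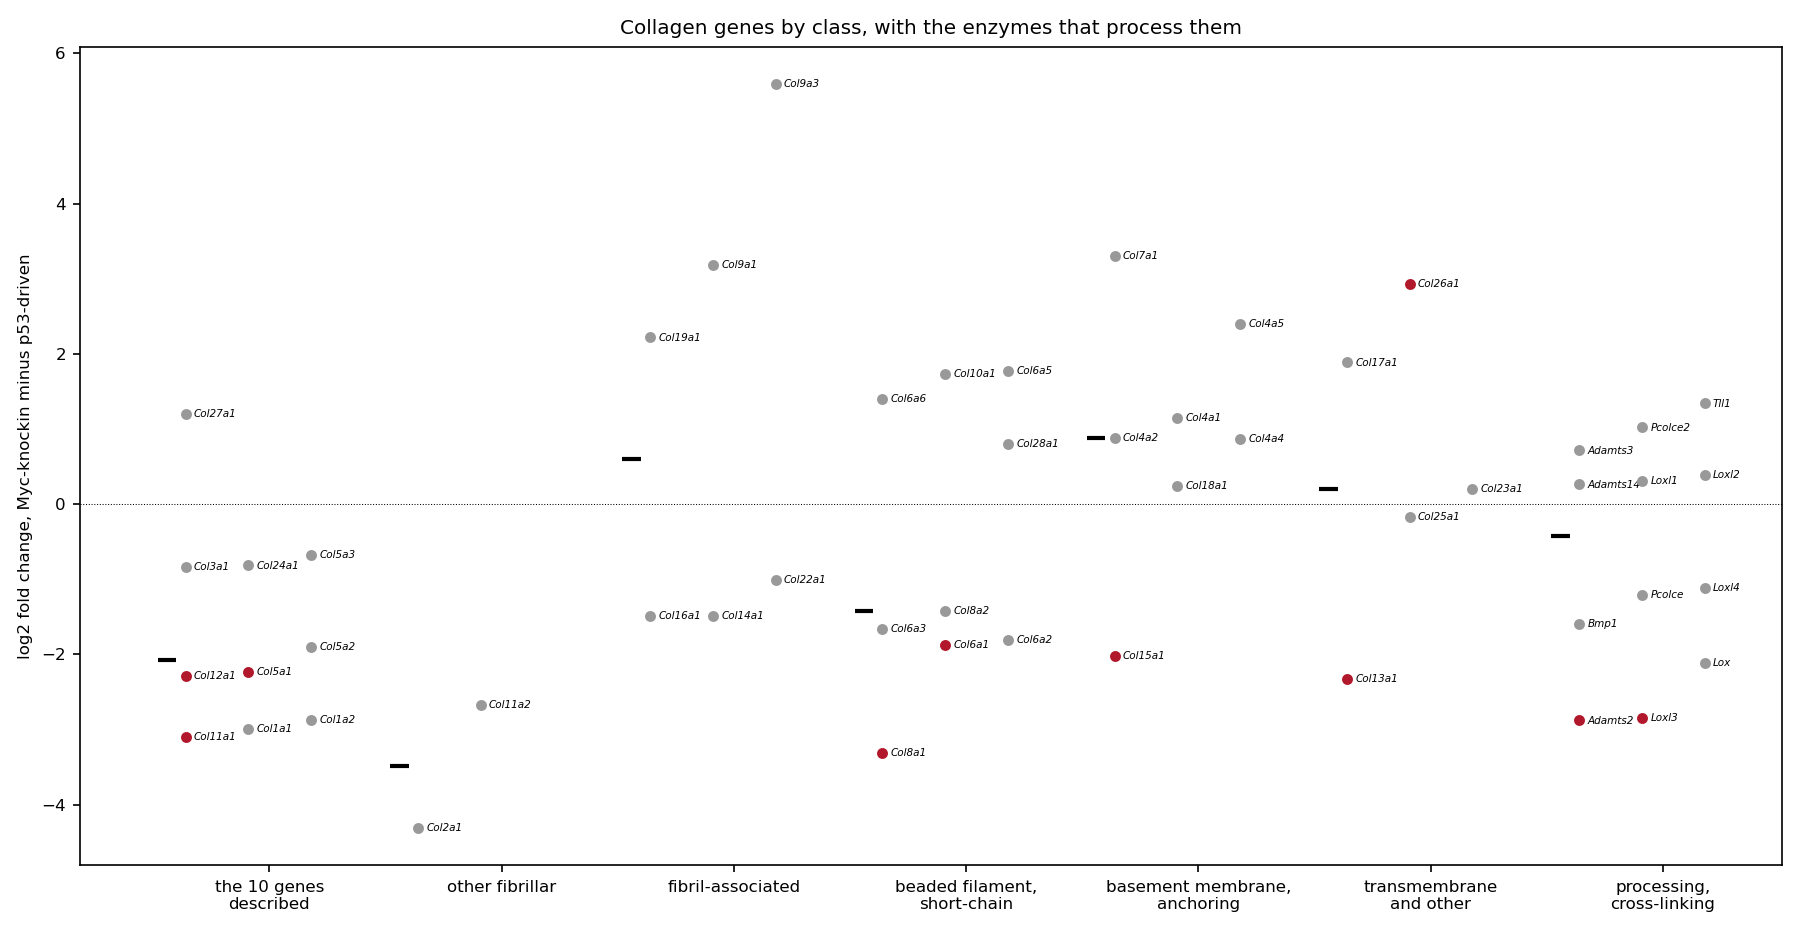
Log2 fold change (Myc-knockin minus p53-driven, edgeR) of every tested gene in 7 classes, red where called and grey otherwise; the short bar left of each class is its median. The 10 genes described have a median of -2.07, with 9 of 10 below 0, and the basement membrane and anchoring class has a median of 0.88. This last median is the value of Col4a2, which was far higher in M624 than in any other tumor.

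Procollagens become fibrils only after their end pieces are cut off and lysines are cross-linked. Of 13 listed genes of these steps, 12 were tested and 2 were called, both lower, against 3.00% of all genes. Adamts2, the enzyme that removes the amino-terminal propeptide of types I to III, read 143, 543, 291 and 326 CPM in F187, F325, F331 and F368, and 44.3, 33.0, 36.6, 18.1 and 88.9 CPM in M351, M408, M9, M624 and M664. The groups did not overlap (log2 fold change -2.88, SE 0.50, edgeR adjusted p = 0.0217). Loxl3, a lysyl oxidase that cross-links collagen, read 37.4 to 120 CPM in the p53-driven and 3.89 to 14.4 CPM in the Myc-knockin tumors (log2 fold change -2.85, SE 0.48, adjusted p = 0.0203). Lox, the principal lysyl oxidase, did not overlap either and just missed the threshold (-2.12, SE 0.56, adjusted p = 0.0510), while Bmp1, which removes the carboxy-terminal propeptide, overlapped (-1.59, SE 0.66, adjusted p = 0.154). The median of the 12 was -0.42, and 6 of them had positive values.

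Likeness to Col1a1 was measured as the root-mean-square difference of mean-centred log2 CPM over the 9 tumors, as a description. Of 15364 genes, Col1a2 was nearest at 0.362. Outside the 10 genes, the nearest were Adamts2 (0.479), Gask1b (0.518), Cemip (0.537), a hyaluronan-binding protein, Ccn4 (0.553), a matricellular protein of bone, and Npdc1 (0.579). Col11a1 ranked 11th at 0.647, Col5a2 36th, Col5a1 64th and Col12a1 137th, whereas Col5a3, Col3a1, Col24a1 and Col27a1 ranked 2823rd, 3925th, 4549th and 13678th. The 5 genes near Col1a1 were the others whose groups did not overlap, and the 4 far from it were those whose groups overlapped. The measure includes the difference between the groups, so this is not a separate grouping of the genes.

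Markers of the cell types that could supply or dilute collagen RNA moved with the comparison to different degrees, and their part in the result was not tested. The counts called lower stand against 3.00% of all genes tested. Of 12 osteoblast markers 2 were called lower, Bglap (log2 fold change -5.34) and Bglap2 (-5.42), which encode osteocalcin of mature osteoblasts, and the median of the list was -0.87. Of 9 tested fibroblast markers 2 were called lower, Dcn (-3.78) and Lum (-3.57), small proteoglycans that bind collagen fibrils. The median of this list was -0.44, and 2 of the 9 had positive values, Thy1 (1.55) and Pi16 (0.18). Its summed levels, to which Dcn and Lum contribute, were 1227 to 2285 CPM in the p53-driven and 190 to 856 CPM in the Myc-knockin tumors. Of 7 osteoclast markers 5 were called lower (Ctsk, Calcr, Ocstamp, Dcstamp and Atp6v0d2), with a median of -3.81 and summed levels of 2701 to 14047 and 123 to 2567 CPM. Of 8 leukocyte markers 2 were called lower (Csf1r and Cd68), with summed levels of 666 to 1446 and 143 to 457 CPM. The median of the leukocyte list was -1.46, and 1 of the 8, Coro1a (1.29), had a positive value.

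For the other lists none was called. The summed levels in the p53-driven and the Myc-knockin tumors were 71.5 to 154 and 45.9 to 159 CPM for 9 chondrocyte markers, of which Matn1, Snorc and Cnmd had at most 3 counts in every p53-driven tumor, and 487 to 812 and 50.2 to 315 CPM for 5 tenocyte markers. They were 534 to 906 and 262 to 493 CPM for 6 pericyte markers, 321 to 456 and 78.7 to 447 CPM for 6 endothelial markers, and 22.1 to 5066 and 5.45 to 2069 CPM for 7 skeletal muscle markers. F331, the tumor with 2566 CPM of Col2a1, was high in 1 other cartilage matrix gene, the proteoglycan gene Acan (65.8 CPM against 2.33 to 3.28 CPM in the other p53-driven tumors), and low in another, the link protein gene Hapln1 (0.173 CPM against 39.9 to 127 CPM).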

How the data were processed

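RNA-Seq of 4 p53-driven and 5 Myc-knockin tumors was analysed. According to the labels and the methods of the study, mRNA was enriched with oligo-dT probes, and reads were trimmed with Trim Galore, mapped with STAR to mm10 and counted with featureCounts. The authors deposited raw counts per gene without normalization. The strand setting and the treatment of multimapping reads are not given in the sources used here. Columns were assigned to groups by name, since F187, F325, F331, F368, M408 and M624 are listed as cell lines of their genotype in the study's supporting data, and by the letter M for M351, M9 and M664, and no column was tied to a numbered sample. Whether tumors were processed separately from separate mice is not given, so p-values measure the spread between these samples.

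Counts were fitted in R 4.3.3 with edgeR 4.0.16 (glmQLFit and glmQLFTest, TMM, filterByExpr with a minimum count of 10), with Benjamini-Hochberg adjustment over the 15365 genes tested. Calls needed more than a 1.5-fold change with the adjusted p below 0.05. Values are TMM-normalized CPM, and 3 counts corresponded to 0.114 to 2.39 CPM. DESeq2 1.42.0 and limma 3.58.1 (voom with quality weights), other scalings, filters and thresholds, subtraction of the background estimated from 1824 chemosensory receptor genes, and left-out libraries were alternatives. Ratios used a pseudocount of 0.5 counts. Lengths and positions came from GENCODE M21, which holds 55111 of the 55367 gene identifiers, and the length per kilobase is that of the longest coding transcript. The fits and the permutation test were tested on simulated data. Named genes were the 10 members, the called genes of each list with up to 4 of the most abundant, and the 5 genes nearest to Col1a1. Genes named for cell type lists or single tumors beyond this rule were chosen after their values were seen. The members and lists were chosen with earlier results of these data known.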

Additional observations from a re-analysis of the deposited data

Results flagged for a closer look

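Of 78 groups of values examined for a single tumor far from the rest, 13 were marked. The values were compared as CPM or ratios and not as logarithms. Chance alone marks about 1 in 20 where values are normally distributed, and whether that rate holds for these values was not tested. In M624 the per-kilobase ratios to Col1a1 stood above those of the other Myc-knockin tumors for Col3a1 (0.451, next 0.0881), Col5a1 (0.112, next 0.0414) and Col27a1 (0.0458, next 0.00337). The same tumor was high in Col16a1 (173 CPM, next 38.2 CPM) and Col9a3 (95.6 CPM, next 15.1 CPM). In M351 the ratio of Col11a1 to Col5a1 was 1.02, next 0.595. M408 was low in Col2a1 (11.4 CPM, next 35.9 CPM), and M9 was high in Col8a1 (53.4 CPM, next 23.5 CPM).

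Among the p53-driven tumors, F187 had the lowest summed level of the 10 genes (65806 CPM, next 135386 CPM) and the highest Col9a3 (3.16 CPM, next 0.311 CPM). F331 was high in Col2a1 (2566 CPM, next 7.90 CPM) and in the ratio of Col5a2 to Col3a1 (6.77, next 2.15). F325 was high in Col14a1 (80.4 CPM, next 16.5 CPM).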

How the results depend on the processing

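Of the 10 genes, 3 were called lower (3.00% of all genes), against 5 where every tumor had to hold 10 or more counts (5.72%), 1 with library size alone (0.560%), 6 with DESeq2 (5.22%), 6 with limma-voom (6.51%), 5 without M624 and M664 (2.81%), 6 at an adjusted p under 0.1, and 0 to 3 with 1 tumor left out (0.0292% to 4.34%, with 0 of the 10 without F325, F331 or F368). Of the other collagens 5 were called in either direction (5.27% of all genes), against 1 with library size alone (0.885%), 12 with DESeq2 (11.9%) and 11 with limma-voom (10.8%). There were 10 without the 4 libraries with satellite reads (27.9%), 11 at an adjusted p under 0.1, and 0 to 5 with 1 tumor left out (0.0292% to 10.4%). The share of all genes at an adjusted p under 0.1 is not given here. The counts at that threshold therefore cannot be set against it. Of the processing genes 2 were called in either direction (5.27% of all genes), against 1 with library size alone (0.885%) and 5 with limma-voom (10.8%). There were 4 without M624 and M664 (4.61%) and 0 to 3 with 1 tumor left out (0.0292% to 10.4%). The summed level kept its direction, at -3.22 (exact p = 0.0571) without M624 and M664 and -3.32 (exact p = 0.200) without the 4 libraries with satellite reads, the smallest p that either design allows. With library size alone it was -3.42 (exact p = 0.0317). That p is above the 0.0159 of complete separation, so the sums overlapped at this scaling. Directions reversed for Col2a1 (1.06 with limma-voom, and -4.76 to 2.90 with 1 tumor left out), for the ratio of Col1a2 to Col1a1 (-0.12 without the satellite libraries, -0.11 to 0.26 with 1 tumor left out) and for Col5a2 to Col5a1 (-0.62 and -0.11 to 0.65). None of the 10 genes reversed in any of the 20 fits. The cause was not tested. Every Myc-knockin library left without M624 and M664 had satellite reads. Without the libraries with satellite reads, only M624 and M664 were left of that group. Neither fit thus separated library type from genotype. Another scaling or filter moved the median log2 fold change of all genes by -0.117 (library size), 0.825 (all genes with at least 1 count), 1.00 (DESeq2, over more genes) and -0.182 (limma-voom), while Col1a1, Col5a1, Col11a1 and Col12a1 stayed lower by more than 1.9 on the log2 scale. No paired analysis was possible because the columns carry no replicate numbers. Depth limits Col5a3, Col24a1 and Col27a1, with as few as 30, 56 and 28 counts in a tumor.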

Other observations

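The annotation places Gm43921, a transcript of unverified type on the same strand, inside Col1a2 without shared exon bases. It read 59.2, 145, 197 and 155 CPM in F187, F325, F331 and F368, and 49.2, 10.4, 55.0, 0.191 and 4.27 CPM in M351, M408, M9, M624 and M664 (log2 fold change -2.64, SE 1.05, edgeR adjusted p = 0.137). As a share of the Col1a2 count it was 0.261% to 0.347% in the p53-driven tumors, 0.511% to 1.08% in M351, M408 and M9, and 0.0164% and 0.0274% in M624 and M664. Gm38211, placed the same way inside Col5a2, came to 0.625% to 1.12% of the Col5a2 count in the p53-driven tumors, 1.47% to 1.90% in M351, M408 and M9, and 0.0978% and 0.141% in M624 and M664. Both shares were thus lowest in the pair of libraries low in Rn7sk. These genes were chosen after their values were seen.

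In M624, whose osteoblast markers were lowest, Col4a1 and Col4a2 of basement membranes read 3152 and 1326 CPM, where the remaining Myc-knockin tumors read 103 to 642 and 67.7 to 454 CPM and the p53-driven tumors 314 to 526 and 200 to 274 CPM.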
